A study of Mus musculus with 4 samples.

Results

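B cells of DLA tumors were examined by single-cell RNA sequencing in 2 control samples (Control 1 and Control 2) and 2 samples from mice given SP11, an inhibitor of the chaperone HSP90 (Treated 1 and Treated 2). DLA stands for Dalton's lymphoma ascites, a transplantable mouse lymphoma, and its cells had been injected into the peritoneal cavity of Swiss albino mice, controls included. The treated mice received SP11 orally at 30 mg/kg for 17 days. The labels call the controls untreated, the supplement calls them vehicle controls, and neither gives the age of the animals used here. A cell was taken as a B cell when it held at least 2 unique molecular identifiers (UMIs, each counting 1 captured RNA molecule) summed over Cd79a, Cd79b and Ms4a1. It also had to hold at most 2 UMIs summed over the keratin genes Krt8 and Krt18, 0 UMIs of Cd3d, Cd3e and Cd3g, and under 4 UMIs summed over the myeloid genes Lyz2, Tyrobp and Fcer1g. Members were thus chosen by their measured UMIs. After a filter that kept barcodes with 200 or more genes and no more than 10% mitochondrial UMIs, 298 of 4404 cells met this gate.

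B cells are lymphocytes that carry an antibody on their surface, the B cell receptor, whose signal is passed on by the partner proteins CD79A and CD79B. Each cell makes a single kind of light chain, kappa or lambda, and a heavy chain that begins as IgM and may later be switched to IgG, IgA or IgE. Mature B cells include follicular cells of the lymph nodes and spleen, which carry IgM and IgD, marginal zone cells of the spleen, and B-1 cells, which are abundant in the peritoneal cavity of mice and carry much IgM and little IgD. Plasma cells are their antibody-secreting descendants and lose several surface genes of the lineage.

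The gated B cells lay almost wholly in the treated samples. Treated 1 held 154 among 1831 kept cells, or 8.41% (95% exact Clopper-Pearson interval, 7.18 to 9.78%). Treated 2 held 143 among 1091, or 13.1% (11.2 to 15.3%). Control 1 held 1 among 916. Control 2 held 0 among 566, which allows a share of up to 0.530% at a limit of 3 counts (exact interval, 0 to 0.650%). Because cells with keratin UMIs made up most of each sample, the share was also taken among kept cells with at most 2 keratin UMIs. On that base the shares of the treated samples lay side by side, at 28.6% (154 of 538) in Treated 1 and 28.6% (143 of 500) in Treated 2. The 2 samples stood further apart when only cells with at least 500 genes were kept, at 3.37% of all such cells (53 of 1573) in Treated 1 and 12.3% (117 of 950) in Treated 2. Among kept cells with at most 2 keratin UMIs, without the limit of 500 genes, Control 1 had 1.59% (1 of 63 cells, interval 0.0402 to 8.53%). On the same base Control 2 had 0 of 28 cells, which allows up to 10.7% at a limit of 3 counts (exact interval, 0 to 12.3%). The numbers per sample were known when this cell type was chosen, so they are given without a test of treatment. The intervals and limits cover counting error only. The single B cell of Control 1 held 700 UMIs, among them 11 of Cd74, 2 of Ighd, 1 of Ighm and 0 of Igkc.

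**Figure D1:**
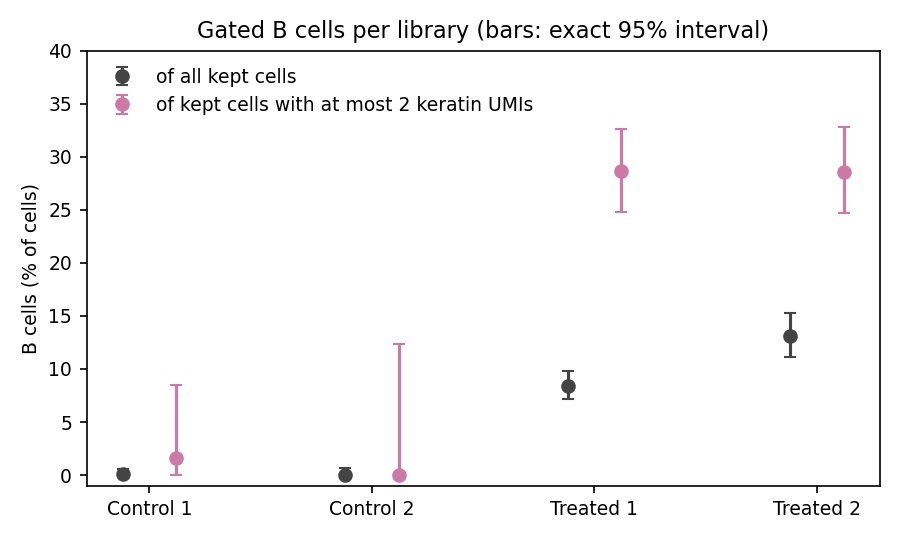
Share of gated B cells (y axis, percent) in each of the 4 samples (x axis), among all kept cells (grey) and among kept cells with at most 2 keratin UMIs (pink), with exact 95% intervals as bars. Both treated samples stand at 28.6% on the second base, and Control 1 and Control 2 at 1.59% and 0%.

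The B cells were shallow. The median was 862.5 UMIs and 449 genes per B cell in Treated 1, and 1582 UMIs and 744 genes in Treated 2, and together the B cells held 161211 and 256029 UMIs. The kept cells of a sample held 9574906 to 13024964 UMIs. Scrublet, a doublet caller, marked 0 of the B cells. It marked 0.928% and 1.47% of all kept cells of Treated 1 and Treated 2, and 5.13% and 8.13% of Control 1 and Control 2. The 4 samples share cell barcodes, with 359 listed in both treated samples, and 48 B cells of Treated 1 and 60 of Treated 2 carry a barcode that another sample lists too. No barcode belonged to a B cell in both treated samples. Both tests below were repeated without these cells.

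Just inside the gate, 6 cells of Treated 1 and 8 of Treated 2 held exactly 2 UMIs of the 3 gating genes, with a median of 4.5 and 7 Igkc UMIs. Just outside, 8 and 6 cells that met the other limits held 1 UMI, with a median of 1 and 0 Igkc UMIs. Among kept cells with at least 2 UMIs of the gating genes, 85 of 239 in Treated 1 and 41 of 184 in Treated 2 were left out by the other limits.

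The defining markers of B cells were found in both treated samples. Cd79a, a gating gene, reached 5794 CPM (the gene's UMIs over all UMIs of the B cells of that sample, scaled to a common total) in Treated 1 and 5476 CPM in Treated 2. Cd79b reached 2884 and 2297 CPM, and Ms4a1, which encodes the surface protein CD20, reached 1154 and 1090 CPM. These 3 were used by the gate and their levels describe it. The other 4 markers had no part in the gate. Igkc, the kappa constant gene, was found in 93.5% of B cells of Treated 1 and 97.9% of Treated 2. Ambient RNA sets a floor under such shares, and Igkc was found in 9.80% of T-gated cells of Treated 2 (median depth, 880 UMIs) and in 3.73% and 6.06% of myeloid-gated cells of Treated 1 and Treated 2 (1006 and 1623 UMIs). Ighm, the IgM heavy chain gene, had 1985 CPM in Treated 1 and 2629 CPM in Treated 2. Ebf1, a transcription factor that specifies the lineage, had 887 and 1508 CPM. Bank1, a scaffold of B cell receptor signaling, had 540 and 1019 CPM. At least 3 of these 4 markers were found in 90 of the 154 cells of Treated 1 and 113 of the 143 cells of Treated 2, and 1 cell in Treated 1 and 0 in Treated 2 had none.

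Promoter sequences are printed for the gating gene with the highest UMI count and for the ungated marker Bank1, the pair of defining markers in whose windows sequence motifs of B lineage factors were found. A promoter was listed for 3 of the 7 defining markers in the RefSeq table (GRCm38.p6). The third, Ebf1, had 2 windows listed, and neither held a match to the motifs named below. The printed windows were thus chosen with their matches known. Each window of 300 bases begins upstream of the gene's start and ends shortly after it. The Cd79a window is chr7:24897247-24897546 (plus strand) and that of Bank1 is chr3:136326017-136326316 (minus strand). Capitals mark matches to 4 motifs searched on both strands, the E-box CAGGTG, the Ets core GGAAGTG, the EBF core CCCNNGGG and the octamer ATTTGCAT.
Cd79a: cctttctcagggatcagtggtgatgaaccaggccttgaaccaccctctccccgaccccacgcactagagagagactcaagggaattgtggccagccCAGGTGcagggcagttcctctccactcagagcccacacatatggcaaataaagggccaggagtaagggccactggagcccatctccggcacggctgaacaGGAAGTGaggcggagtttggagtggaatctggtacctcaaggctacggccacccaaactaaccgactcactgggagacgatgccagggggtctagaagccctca
Bank1: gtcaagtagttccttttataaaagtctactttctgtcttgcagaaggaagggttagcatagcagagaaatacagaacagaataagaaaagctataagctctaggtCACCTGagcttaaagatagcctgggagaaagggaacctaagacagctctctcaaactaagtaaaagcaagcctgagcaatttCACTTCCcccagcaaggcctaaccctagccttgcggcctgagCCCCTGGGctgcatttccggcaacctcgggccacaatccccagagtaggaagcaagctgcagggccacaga
In Cd79a the E-box begins at base 97 of the window and the Ets core at base 197. In Bank1 the E-box begins at base 106, the Ets core at base 188 and the EBF core at base 230, the first 2 read on the opposite strand. No match overlaps another, and the octamer is in neither window. Over 27025 promoters, the first window listed for each gene, 20.03% held the E-box, 11.2% the Ets core, 13.4% the EBF core and 1.75% the octamer. A match is a description of the letters and not of a bound site.

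Most cells were assigned a light chain by the rules below, of which the lambda rule asked for a smaller margin. A cell was called kappa with at least 3 Igkc UMIs and more than 3 times the summed UMIs of the lambda constant genes Iglc1, Iglc2 and Iglc3. It was called lambda with at least 3 lambda UMIs and more lambda than Igkc UMIs. Treated 1 had 108 kappa cells (70.1%, interval 62.2 to 77.2%) and 19 lambda cells (12.3%, interval 7.59 to 18.6%), and 27 cells met neither rule. Treated 2 had 105 kappa cells (73.4%, interval 65.4 to 80.5%) and 12 lambda cells (8.39%, interval 4.41 to 14.2%), and 26 met neither. The kappa and lambda shares of the 2 samples lay within each other's intervals. In kappa cells the lambda median was 1 UMI in Treated 1 and 2 in Treated 2, and in lambda cells it was 8 and 23. In lambda cells the Igkc median was 1 and 4.5 UMIs. At least 3 UMIs of each chain were found in 29 cells of Treated 1 (18.8%, interval 13.0 to 25.9%). In Treated 2 they were found in 55 cells (38.5%, interval 30.5 to 47.0%). Among lambda cells Iglc1 led in 12 of 19 and 7 of 12, Iglc2 in 4 and 5, and Iglc3 in 3 and 0. Iglc2 and Iglc3 are near-identical, so the division of UMIs between them is uncertain. Variable genes were read rarely at this depth, with 36 UMIs over 25 genes in Treated 1 and 49 UMIs over 26 genes in Treated 2.

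**Figure D2:**
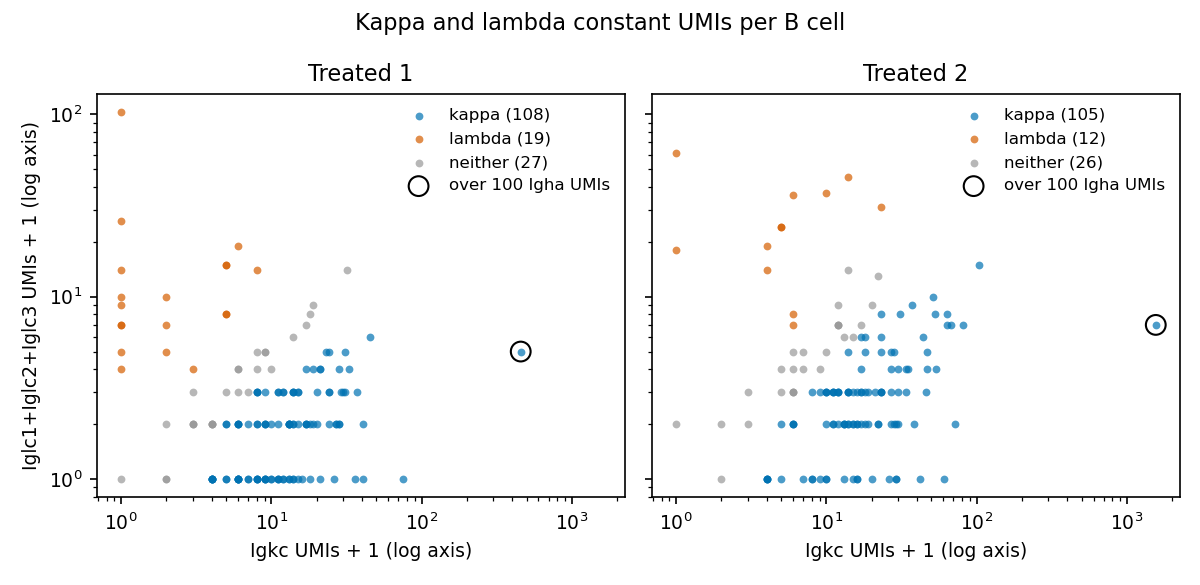
Igkc UMIs plus 1 (x axis, log) against summed Iglc1, Iglc2 and Iglc3 UMIs plus 1 (y axis, log) for each B cell of Treated 1 (left) and Treated 2 (right), coloured by call. Kappa cells lie along the bottom, lambda cells lie high on the left, and the circled cell in each panel holds 255 or 379 Igha UMIs.

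Ighm was the leading heavy chain gene in 85 cells of Treated 1 (55.2%, interval 47.0 to 63.2%) and in 89 of Treated 2 (62.2%, interval 53.8 to 70.2%). No heavy chain gene reached 2 UMIs in 66 and 40 cells. Switched genes led in 3 cells of Treated 1 (1.95%, interval 0.404 to 5.59%) and 10 of Treated 2 (6.99%, interval 3.40 to 12.5%). Ighe had 0 UMIs in both. Igha, the IgA heavy chain gene, had 256 UMIs in Treated 1 and 392 in Treated 2, of which 255 and 379 came from 1 cell each. The cell of Treated 1 also held 456 Igkc UMIs, 30.5% of its 1496 UMIs, and 34 of the 35 Jchain UMIs of that sample. The cell of Treated 2 held 1557 Igkc UMIs, 49.2% of its 3164, and 77 of the 84 Jchain UMIs. Jchain encodes the chain that joins secreted IgA and IgM. Both cells had 0 UMIs of Ms4a1 and of Sdc1, the plasma cell surface gene, 1 of Cd74, and 5 and 4 of Cd79a. Their Igkc made up 20.7% and 37.5% of all Igkc UMIs of the B cells of their samples.

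Genes that carry the receptor's signal were read throughout. All 16 genes of the signaling and coreceptor list had UMIs in both treated samples. The kinases Syk (471 and 539 CPM), Lyn (366 and 480 CPM) and Blk (174 and 223 CPM) were read in Treated 1 and Treated 2. Cr2, the complement receptor CD21, was low, with 1 UMI in Treated 1 and 7 in Treated 2. Of the 14 lineage transcription factors, all had UMIs in both samples, among them Pax5, which holds cells to the lineage (198 and 316 CPM), Pou2f2 (341 and 519 CPM), Ikzf3 (230 and 316 CPM) and Spi1 (155 and 191 CPM). Tnfrsf13c, the receptor for the survival factor BAFF, had 124 and 148 CPM, and Tnfrsf13b, a second receptor of that family, had 261 and 207 CPM. Of the 10 presentation genes of MHC class II, 7 in Treated 1 and 6 in Treated 2 exceeded 100 CPM, led by Cd74, the invariant chain, at 18200 CPM in Treated 1 and 16713 CPM in Treated 2, and H2-Aa at 1985 and 2301 CPM. Ciita, the activator of these genes, had 37.2 and 27.3 CPM. UMIs were counted at transcript ends, so the CPM of different genes are not set against each other per length.

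Among genes with at least 20 UMIs in the B cells of each treated sample, the 15 with the largest fold over all other kept cells held 3 genes outside the usual lineage lists. Sox5, a transcription factor of the SoxD group, had 99 UMIs in 43.5% of B cells of Treated 1 and 199 UMIs in 40.6% of Treated 2, which is 614 and 777 CPM, and 175-fold and 221-fold the level of the other cells. Ccl17, a chemokine that attracts cells through CCR4, had 51 and 53 UMIs in 30 and 28 cells, which is 316 and 207 CPM, and 156-fold and 165-fold. Gm35019 had 298 and 230 CPM, and 123-fold in each sample. The others included antibody and receptor genes (Iglc2, Igkc, Iglc1, Igha, Cd79a, Cd79b and Ms4a1), Mzb1, which assists antibody assembly, Blk, Pax5 and Tnfrsf13c. Since the gate chose cells by B cell genes, these folds describe the gate and were not tested. Among these 15 genes, a promoter was listed for Cd79a, Sox5, Ccl17, Pax5 and Tnfrsf13c. The Tnfrsf13c window held an E-box at base 155, and in those of Sox5, Ccl17 and Pax5 none of the 4 motifs was found.

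The members of the B-1 list stood at very different levels, with 7 of 17 above 100 CPM in Treated 1 and 6 in Treated 2 and medians of 62.0 and 54.7 CPM. The list summed to 9906 and 8480 CPM, against 17750 and 16652 CPM in keratin-gated cells and 9502 and 9913 CPM in myeloid-gated cells. Most of the sum was S100a6, a calcium-binding protein gene, which had 7115 CPM in Treated 1 and 5601 CPM in Treated 2, and Vim, the intermediate filament gene, had 1383 and 1398 CPM. Zbtb32, a transcriptional repressor, had 21 and 35 UMIs (130 and 137 CPM), and Bhlhe41, a transcription factor needed by B-1a cells, had 10 and 15 UMIs (62.0 and 58.6 CPM). Cd5, the surface gene that defines B-1a cells, was at 0 UMIs in Treated 1, which allows under 3 UMIs of 161211, and at 1 UMI in Treated 2. Spn, the B-1 surface gene CD43, had 1 and 2 UMIs. Anxa2, an annexin gene, had 298 and 277 CPM, against 2872 and 2666 CPM in all other kept cells. S100a6 was not particular to B cells, at 13990 and 13004 CPM in keratin-gated cells and 4496 and 4700 CPM in myeloid-gated cells. Zbtb32 had 1.53 and 1.32 CPM in keratin-gated cells and 7.29 and 5.44 CPM in myeloid-gated cells.

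Genes of the follicular list had a higher CPM in Treated 2 than in Treated 1. Ighd, the IgD heavy chain gene, had 6 UMIs in Treated 1 (37.2 CPM, exact Poisson interval, 13.7 to 81.0) and 36 in Treated 2 (141 CPM, 98.5 to 195). Fcmr, the receptor for IgM, had 8 UMIs (49.6 CPM, 21.4 to 97.8) and 51 UMIs (199 CPM, 148 to 262). For both genes the counting intervals of the samples did not overlap. Among the defining markers they were also separate for Igkc, Ighm, Ebf1 and Bank1, higher in Treated 2, and for Cd79b, lower there. Those of Cd79a and Ms4a1 overlapped. For Igkc, 1 cell rich in Igha held 20.7% of the UMIs in Treated 1, and another held 37.5% in Treated 2. The Igkc intervals were not computed without these cells, so neither separation nor direction is shown for the other B cells. How often the intervals were separate over all genes was not counted, so separation does not set these genes apart from others. The intervals also treat UMIs as independent and leave out the spread between cells. Klf2, a transcription factor of resting lymphocytes, led the list with 614 and 891 CPM, and Cd55 had 118 and 141 CPM. In all 9 genes of the follicular list with at least 5 UMIs over both samples, the CPM was higher in Treated 2, with a median log2 ratio of 1.20 after adding 10 CPM. Over all 6722 such genes, 57.7% were higher in Treated 2 and the median was 0.11. The same held for 13 of the 14 lineage transcription factors, with a median of 0.59, while the 14 genes of the B-1 list were divided, 7 higher and 7 not, with a median of -0.03. These are differences between 2 samples of the same group and have no replicates behind them. An Ighd UMI was found in 6 of 154 and 27 of 143 cells, and in 3 and 13 after every cell was thinned to 500 UMIs.

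**Figure D3:**
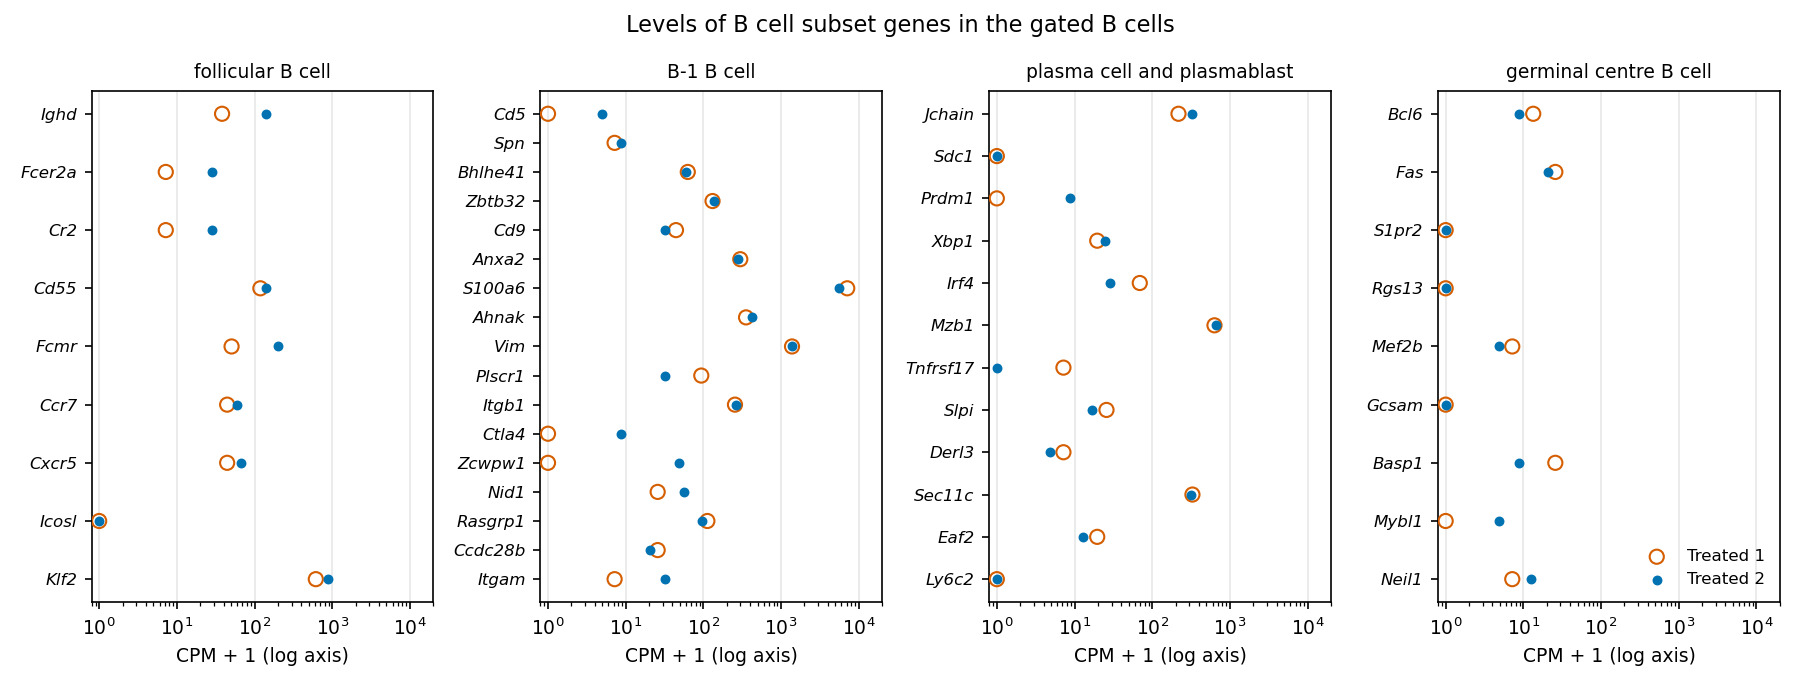
Level (CPM plus 1, log x axis) of genes of 4 B cell subset lists in the B cells of Treated 1 (open circles) and Treated 2 (filled points), where a point at the left edge is at 0 UMIs. Follicular genes such as Ighd and Fcmr lie further right in Treated 2, while S100a6 and Vim lead the B-1 list and the germinal centre genes lie far to the left.

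The germinal centre and precursor lists were close to empty. The 10 germinal centre genes summed to 13 UMIs in Treated 1 and 15 in Treated 2, with Bcl6, a transcription factor of the germinal centre, at 2 UMIs in each. The 12 precursor genes summed to 4 and 14 UMIs, and Rag1, Rag2 and Dntt, which build the receptor, were at 0 in both. The 10 marginal zone genes summed to 245 and 401 UMIs, of which Plac8 (757 and 766 CPM) and Mzb1 (633 and 672 CPM) carried most, while S1pr3, a homing receptor of these cells, had 1 and 0. The 12 plasma cell genes summed to 213 and 360 UMIs, led by Mzb1, which is on both lists, with Sdc1 at 0 in both samples. Il10, the cytokine of regulatory B cells, was at 0 as well. The interferon list was carried by Ifi27l2a, with 1110 and 859 CPM.

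The markers of other cells were in part held down by the gate, which limited Cd3d, Cd3e, Cd3g, Lyz2, Tyrobp, Fcer1g, Krt8 and Krt18. The 13 T cell genes summed to 7 UMIs in Treated 1 and 11 in Treated 2, and the 8 NK cell genes to 2 and 1. The 14 macrophage and monocyte genes summed to 71 and 82 UMIs, of which Tyrobp, a signaling adaptor, gave 61 and 66, while Lyz2 had 2 in each sample and C1qa, C1qb and C1qc, which the gate did not use, were at 0. The 8 epithelial genes summed to 87 UMIs in each sample, and Krt7, a keratin gene outside the gate, had 20 and 24. Neutrophil genes summed to 106 and 31 UMIs, led by S100a9 with 62 and 16. Hemoglobin genes, by contrast, took 8.83% of the B cells' UMIs in Treated 1 and 7.27% in Treated 2. Most came from 24 and 17 cells with over 5% hemoglobin UMIs, which held 13661 and 17520 of them, against medians of 4 and 7.5 in the other B cells. Hbb-bs was also high in myeloid-gated cells, at 50480 and 63688 CPM. Its part in the results below was not tested beyond leaving these cells out.

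Bcl2, an inhibitor of cell death that the study followed as a resistance marker, was read in few B cells. It had 8 UMIs in Treated 1 (49.6 CPM, 21.4 to 97.8) and 24 UMIs in Treated 2 (93.7 CPM, 60.1 to 139). T-gated cells of Treated 2 had 16 UMIs, or 293 CPM. Myeloid-gated cells had 10.9 and 13.6 CPM, and keratin-gated cells had 7.58 and 9.39 CPM. In CPM the B cells therefore stood between the T-gated cells and the other gates, in the samples where each was measured. Bcl2 was found in 4.55% of B cells of Treated 1 and 14.7% of Treated 2, against 7.04% and 16.8% of keratin-gated cells, which had medians of 8794 and 19651 UMIs. Mcl1, a relative of Bcl2, had 540 and 437 CPM in B cells, and Myc, a driver of growth, had 3 and 4 UMIs. Of the chaperones that SP11 targets, Hsp90ab1 had 1991 and 1433 CPM and Hsp90aa1 had 347 and 312 CPM in B cells, against 6226 and 5737 CPM and 2328 and 2710 CPM in keratin-gated cells. Hspa1a and Hspa1b, which are induced by heat shock, were at 0 UMIs in B cells of both samples. With 1 B cell in the controls, no level can be set against an untreated one.

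**Figure D4:**
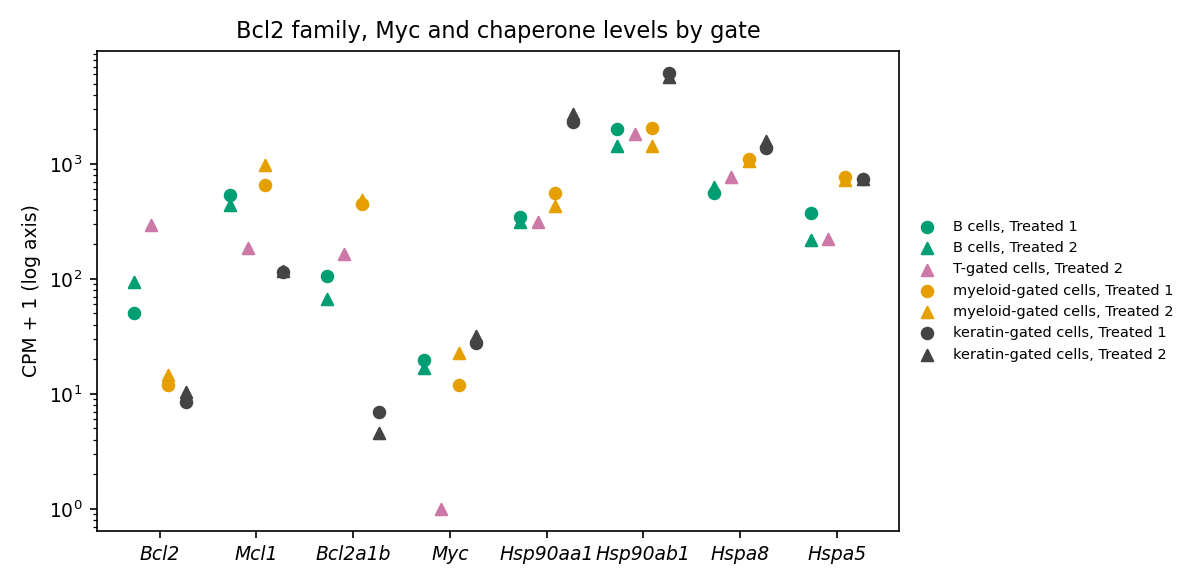
Level (CPM plus 1, log y axis) of 8 genes (x axis) in B cells, T-gated, myeloid-gated and keratin-gated cells of Treated 1 (circles) and Treated 2 (triangles), each point being the summed UMIs of all cells of a gate in a sample. Bcl2 in B cells (49.6 and 93.7 CPM) lies below T-gated cells of Treated 2 (293 CPM) and above the myeloid and keratin gates, and Hsp90aa1 is highest in keratin-gated cells.

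To see what else differed in B cells that carry IgD, cells with an Ighd UMI were compared with cells without. UMIs were summed per sample and subset, and the 4 sums were tested in edgeR's quasi-likelihood test with the sample as a block and Benjamini-Hochberg adjustment over all genes tested. Ighd itself was left out. Only 6 cells of Treated 1 (5597 UMIs) and 27 of Treated 2 (37715 UMIs) carried Ighd, against 148 and 116 without. A gate on 1 UMI favours deeper cells. Cells with Ighd were deeper in Treated 1, with medians of 968.5 against 841 UMIs, and shallower in Treated 2, with 1257 against 1688.5. Hemoglobin took 17.2% of the UMIs of cells with Ighd against 8.52% in cells without in Treated 1. In Treated 2 it took 6.42% against 7.41%. Of 1276 genes tested, 5 were called, or 0.392%, with 1 higher (0.0784%) and 4 lower (0.313%).

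Bach2, a transcriptional repressor that holds back plasma cell formation, was the gene that rose. In Treated 1 it had 5 UMIs in cells with Ighd (894 CPM) and 17 in cells without (109 CPM). In Treated 2 it had 38 (1009 CPM) and 49 (224 CPM). It was higher in both samples, with a log2 fold change of 2.20 (SE 0.44; edgeR adjusted p = 0.000385). The call was lost with DESeq2 (log2 fold change 2.30, adjusted p = 1.00), with cells thinned to 500 UMIs (1.95, adjusted p = 0.400) and without the filter on low counts (1.67, adjusted p = 0.931). Crip1, a small zinc-binding protein gene, fell by 1.85 on the log2 scale (SE 0.48; edgeR adjusted p = 0.0467), from 7133 to 1967 CPM in Treated 1 and from 6257 to 2203 CPM in Treated 2. S100a4, a calcium-binding protein gene, fell by 2.04 (SE 0.54; edgeR adjusted p = 0.0488), with 2 UMIs against 114 in Treated 1 and 6 against 157 in Treated 2. Without the pair of Igha-rich cells the log2 fold changes were about as large, at -1.83 for Crip1 and -2.05 for S100a4, while the edgeR adjusted p was 0.0667 for both, so the calls were lost. Over 13 alternatives with a test, the call was lost in 5 for Crip1, in 8 for S100a4 and in 3 for Bach2. Leaving out called doublets is among the 13, but it removed 0 B cells and could not change a call. Thinning also redrew the subsets, with an Ighd UMI left in 3 cells of Treated 1 and 13 of Treated 2.

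Igha and Jchain were the other called genes. Jchain had 0 UMIs in cells with Ighd against 119 in cells without, over both samples, which is at least 4.59-fold lower when 3 UMIs over the group are taken as the limit. Igha had 1 UMI against 647, a ratio of 74.9 (interval, 13.4 to 2965). The limit and the interval treat UMIs as independent and do not cover the spread between cells. In Treated 1 and Treated 2, 255 and 379 Igha UMIs and 34 and 77 Jchain UMIs came from 1 cell each. Without that pair, the B cells of these samples held 1 and 13 Igha UMIs, so neither fold describes the other cells. Both calls rest on the pair of Igha-rich cells, and without those cells neither gene was left among those tested. Of the 4 tested genes of the follicular list, 0 were called by edgeR or DESeq2 and 2 had an unadjusted p under 0.05, against 60 of the 1276 genes tested. Fcmr had a log2 fold change of 1.90 (SE 0.61; edgeR adjusted p = 0.196). Of the 7 tested genes of the B-1 list, 0 were called by either tool, 2 had an unadjusted p under 0.05, and the fold change was above 0 in 0 of them. The median was -1.12, against -0.12 over all genes tested. Vim had a log2 fold change of -1.45 (SE 0.43; edgeR adjusted p = 0.113) and S100a6 of -1.12 (SE 0.47; edgeR adjusted p = 0.869).

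A second split set cells with at least 1 UMI of the B-1 genes Bhlhe41, Zbtb32 or Cd5 against cells with none, by the same test and without these genes. The subsets held 27 and 127 cells in Treated 1, and 36 and 107 in Treated 2. Here the cells with a UMI were deeper, with medians of 1193 against 821 UMIs and 2089 against 1342. Of 1319 genes tested, 11 were called, or 0.834%, with 3 higher (0.227%) and 8 lower (0.607%). Without the sample as a block, 0 were higher and 1 lower, with 35 at an unadjusted p under 0.05, and DESeq2 called 0 higher and 1 lower.

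Sox5 was higher in cells with a B-1 gene UMI. It had 811 CPM in cells with a UMI and 563 CPM in cells without in Treated 1, and 1194 and 546 CPM in Treated 2, with a log2 fold change of 0.83 (SE 0.21; edgeR adjusted p = 0.0182). After thinning to 500 UMIs per cell the value for Sox5 was 0.01, and without cells sharing a barcode with another sample it was 0.96 (edgeR adjusted p = 0.147). Thinning also redrew the subsets, with a B-1 gene UMI left in 13 cells of Treated 1 and 12 of Treated 2. The thinned value therefore does not compare the same cells at equal depth. Tmsb4x, which encodes an actin-binding peptide, rose by 0.49 (SE 0.13; edgeR adjusted p = 0.0291). Wbp4, a splicing factor gene, rose by 2.13 (SE 0.58; edgeR adjusted p = 0.0429) on 5 against 3 UMIs in Treated 1 and 11 against 5 in Treated 2. Without the Igha-rich cells the log2 fold changes were about as large, at 0.82 for Sox5, 0.47 for Tmsb4x and 2.12 for Wbp4, with edgeR adjusted p of 0.0640 for Sox5 and Tmsb4x and 0.360 for Wbp4. The call was lost in 10 of 13 alternatives for Sox5, in 10 of 13 for Tmsb4x and in 7 of 8 for Wbp4, so these 3 rest on the settings of the main test.

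The 8 genes that fell were Igha, Jchain, Igkc, the hemoglobin genes Hbb-bt, Hbb-bs and Hba-a2, the lipid carrier gene Apoe, and Gm42418. Igha and Jchain rest on the pair of Igha-rich cells here too, and without those cells neither was among the genes tested. The call was lost in 6 of 9 alternatives for Apoe, in 9 of 13 for Gm42418, in 8 of 12 for Hba-a2 and in 7 of 13 each for Hbb-bt and Hbb-bs, and Hbb-bs turned to 0.25 on the log2 scale in cells with at least 500 genes. Igkc fell by 0.73 on the log2 scale (SE 0.12; edgeR adjusted p = 2.51e-07). Without the pair of Igha-rich cells its log2 fold change was -0.05 (edgeR adjusted p = 0.999), and the call was lost in 8 of 13 alternatives. Hbb-bt had 1382 against 4003 CPM in Treated 1 and 2553 against 3084 CPM in Treated 2, so most of the difference lay in Treated 1. Without the cells rich in hemoglobin, the log2 fold changes were -0.82 for Hbb-bt and -0.57 for Hbb-bs, against -0.83 and -0.56 with them, and the edgeR adjusted p was 1.00 for both. Hbb-bt and Hbb-bs are near-identical copies, as are Hba-a1 and Hba-a2, and how the counting divided their UMIs is uncertain. Of the 6 tested genes of the B-1 list, 0 were called by edgeR or DESeq2 and 2 had an unadjusted p under 0.05, against 74 of the 1319 genes tested. S100a6 had a log2 fold change of 0.24 (SE 0.12; edgeR adjusted p = 0.878).

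**Figure D5:**
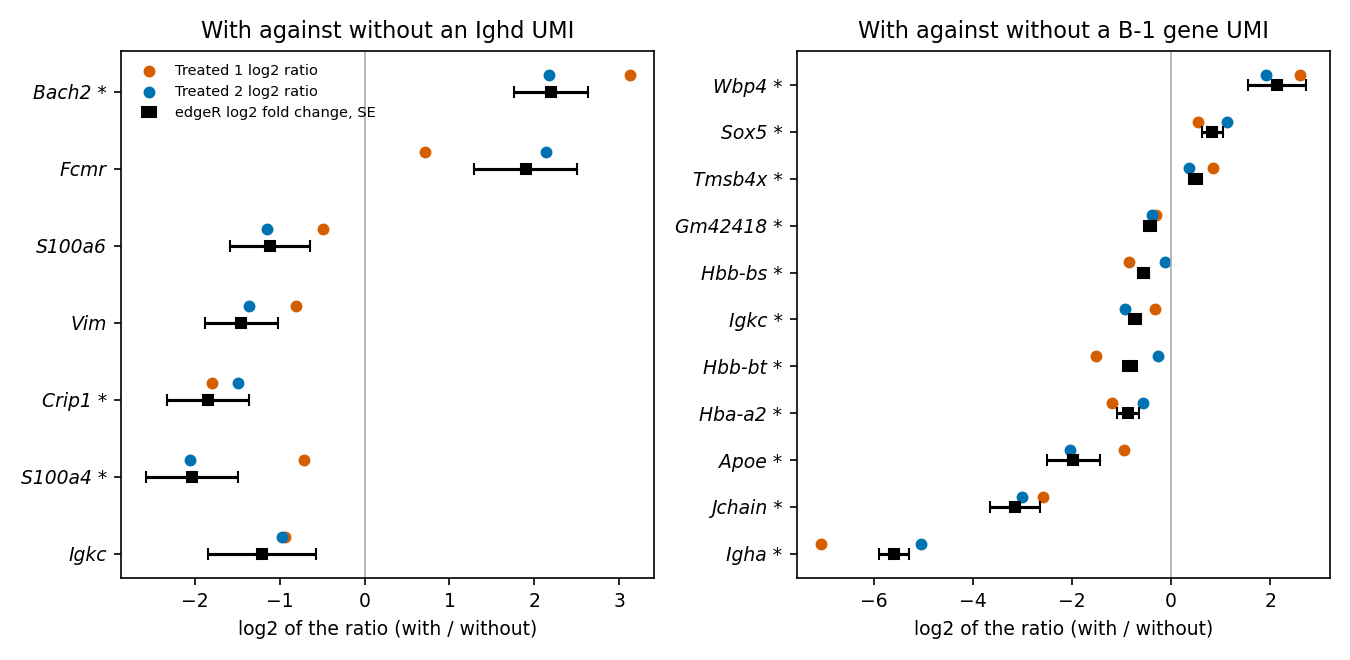
Log2 ratio of CPM (x axis, 0.5 UMI added) in B cells with against without an Ighd UMI (left) and with against without a UMI of Bhlhe41, Zbtb32 or Cd5 (right), for Treated 1 (orange), Treated 2 (blue) and the edgeR fit (black squares, SE as bars), where an asterisk marks an adjusted p under 0.05. Bach2 lies to the right in both samples on the left, at 3.13 and 2.17, and Sox5 lies to the right on the right, at 0.54 and 1.13.

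B cells were clustered among themselves without antibody genes, as a description with no test. Subcluster 0 held 157 cells (94 of Treated 1, 62 of Treated 2 and the cell of Control 1), subcluster 1 held 130 (51 and 79), and subcluster 2 held 11 (9 and 2). Under 3 fixed markers of any subset stood among the leading 10 genes of each, so they were left unnamed. S100a6 had 8132 and 7444 CPM in subcluster 0 against 4147 and 2985 CPM in subcluster 1, in Treated 1 and Treated 2. Sox5 had 694 and 1089 CPM against 545 and 242 CPM, and Ccl17 had 398 and 324 CPM against 105 and 58.0 CPM. In subcluster 1, Bach2 had 126 CPM in Treated 1 and 618 CPM in Treated 2, against 163 and 145 CPM in subcluster 0, so the samples did not share a direction. Subcluster 1 was led by Igha and Jchain, at 141-fold and 40.9-fold the level of the other B cells, and held the pair of Igha-rich cells. That pair gave 255 and 379 of its 641 Igha UMIs and 34 and 77 of its 115 Jchain UMIs. Both folds therefore describe the pair and not the other cells of subcluster 1. The neutrophil genes S100a9 (8.31-fold) and S100a8 were among its leading 10 as well. Ccr7, a receptor for entry into lymph nodes, had 126 and 116 CPM in subcluster 1 and 0 and 20.7 CPM in subcluster 0. Subcluster 2 was led by Nusap1, Hist1h1b, Hist2h2ac, Top2a and Hist1h1d, genes of dividing cells, and its cell cycle list summed to 4982 and 8876 CPM against 420 to 735 CPM in the others. Hemoglobin took 6.17, 11.5 and 1.45% of the UMIs of subclusters 0, 1 and 2.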

How the data were processed

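Droplet-based 3′ single-cell RNA sequencing was measured in DLA tumor cells of 2 control and 2 SP11-treated samples. For every sample the authors deposited a matrix of unnormalized UMI counts of genes by barcodes, made with Cell Ranger 7.1.0 per the file headers. The labels name the build mm10, whereas the methods text names hg38, and whether intronic reads were counted is not given in the sources used here. No column of another sample was present. The members and gene lists were chosen with earlier results of these data known.

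Cells were filtered at 200 genes and 10% mitochondrial UMIs, and gated as described. T-gated cells held at least 2 Cd3 UMIs, myeloid-gated cells at least 4 UMIs of Lyz2, Tyrobp and Fcer1g, both without gating UMIs, and keratin-gated cells over 2 keratin UMIs. A gate was used with at least 20 cells in a sample. Summed counts of subsets were tested with edgeR 4.0.16 in R 4.3.3 (TMM, filterByExpr, quasi-likelihood test, adjusted p under 0.05), with the sample as a block because both subsets come from the same sample. With 2 samples, 1 residual degree of freedom is left, and p-values measure the spread between these libraries only. Alternatives included DESeq2 1.42.0, other filters and leaving cells out. Data were simulated with 200 genes changed and the same dispersion for every gene, which was set beforehand and not estimated from these data. The IgD comparison called 44 of 84 tested genes changed by 2 on the log2 scale and 4 of 88 changed by 1. It made 2 false calls, with 1236 genes tested, changed ones included. The B-1 comparison called 68 of 86 and 34 of 90, with 5 false calls and 1411 genes tested. With no gene changed, both comparisons made 0 false calls. The sums were drawn directly, without spread between cells, and genes carried by 1 cell per sample, such as Igha, were not simulated. These rates need not hold for the measured genes. Subclusters used scanpy 1.11.5 and leidenalg 0.10.2 (1000 variable genes, 20 components, 15 neighbours, resolution 0.5) in Python 3.11.15. Genes named are members of the fixed lists, the 20 with the highest mean CPM, the 15 with the largest fold over other cells, up to 10 called genes per direction of a split changed alike in both samples, and up to 5 leading genes of a subcluster. Shares have exact 95% intervals from scipy 1.17.1, which cover counting error only, as does the limit of 3 counts for a count of 0. A few members of the lists are counted but not reported here by name.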

Additional observations from a re-analysis of the deposited data

Results flagged for a closer look

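Cells or barcodes outside the gate with at least 2 UMIs of the gating genes were found in the treated samples. Among barcodes outside the filters on genes and mitochondrial UMIs, 3 in Treated 2 met the gate, and 0 did in the other samples. Among kept cells, 59 in Treated 1 and 25 in Treated 2 held at least 2 UMIs of Cd79a, Cd79b and Ms4a1 but were left out for over 2 keratin UMIs, against 0 in Control 1 and Control 2. At 1 UMI the controls were not empty, with Cd79a in 0.821% and 1.86% of keratin-gated cells of Control 1 and Control 2 (median depth, 10885 and 17055 UMIs), against 10.3% and 13.4% in Treated 1 and Treated 2 (8794 and 19651 UMIs). In keratin-gated cells the ratio of Ighm to Igkc was 21.1 and 31.8 UMIs per 100, against 14.6 and 16.2 in the B cells. Without the pair of Igha-rich cells, an alternative chosen after seeing the data, the B cells had 18.4 and 25.9. The cause was not tested.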

How the results depend on the processing

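Of 118 shares of B cells, light chains and isotypes recomputed under other settings, 110 stayed within the interval of the reported value. Part of these could not move. Scrublet marked 0 B cells, so leaving out called doublets changed no light chain or isotype share and no value of either split. A mitochondrial limit of 20% left the light chain and isotype shares of Treated 1 as they were. The 8 that moved came from asking for at least 500 genes or for 3 UMIs of the gating genes. With 500 genes the B cells were 3.37% of Treated 1 and 0% of Control 1, Ighm led in 67.9% of Treated 1, both chains were found in 30.2%, neither light chain rule was met in 11.3%, and no heavy chain gene reached 2 UMIs in 30.2% of Treated 1 and 18.8% of Treated 2. With 3 UMIs Control 1 held 0%.

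In the IgD split, 1 higher and 4 lower genes became 0 and 1 with DESeq2, 0 and 1 with cells thinned to 500 UMIs, and 0 and 1 without the filter on low counts. Lower calls became 2 with no replicate block (77 at an unadjusted p under 0.05), 7 with at least 500 genes, and, chosen after seeing the data, 0 without the Igha-rich cells, 2 without hemoglobin-rich cells and 1 without cells sharing a barcode. In the B-1 split, 3 higher and 8 lower genes became 0 and 1 with DESeq2, with no replicate block and with 500 genes, 0 and 0 with thinned cells, and 0 and 2 with at least 1000 UMIs or no filter. They became 0 and 7 with 3 UMIs of the gating genes, 0 and 4 without the Igha-rich cells, 0 and 2 without hemoglobin-rich cells, and 0 and 5 without shared barcodes. In the settings with 0 higher genes, 5 to 153 genes of either direction had an unadjusted p under 0.05. Hbb-bs turned from -0.56 to 0.25 on the log2 scale with at least 500 genes. The causes were not tested. With 1 treated sample left out no residual degree of freedom remains, so values without test are given. Bach2 was 2.17 without Treated 1 and 3.13 without Treated 2, and Sox5 was 1.13 and 0.54. Depth limits these results, since several called genes rest on under 20 UMIs in a subset.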
